A study of Mus musculus with 6 samples.

Results

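The cartilage collagens are the genes *Col2a1*, *Col9a1*, *Col9a2*, *Col9a3*, *Col10a1*, *Col11a1*, *Col11a2* and *Col27a1*, chosen by symbol, and all 8 were found among the 33696 genes of the count matrices. They were followed in single cells of mouse Achilles tendon, in 6 libraries with 1 library for each condition. The cells came from tamoxifen-induced *Gli1-CreERT2; Ai9* mice, in which cells that expressed the hedgehog target *Gli1* at induction, and their progeny, carry the Ai9 reporter, and were sorted into Gli1+ and Gli1- fractions. Every mouse carried both alleles and received tamoxifen, so that the Gli1- cells came from the same line and not from a line without Cre. Tendons were uninjured or were cut (tenotomy) and taken at 7 or 21 days post injury (dpi). The labels give 24 mice, 8 per time, and 1 library for each sort and time. The age of the mice and the number that entered each library are not given there. The question put to the members was how their transcripts change along the healing of a cut tendon, where cartilage and bone can form, and which cells hold them.

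Cartilage gets its tensile strength from thin heterotypic fibrils. Type II collagen, a homotrimer of the *Col2a1* chain, makes up most of the fibril, and type XI collagen, with chains encoded by *Col11a1*, *Col11a2* and *Col2a1* itself, lies within it and limits its diameter. Type IX collagen, a heterotrimer of the *Col9a1*, *Col9a2* and *Col9a3* chains, is bound to the fibril surface and carries no long fibril of its own. Type X collagen, a homotrimer of the *Col10a1* chain, is the network-forming collagen by which hypertrophic cartilage is recognized. Type XXVII collagen, encoded by *Col27a1*, is a fibrillar collagen of developing cartilage that is also made elsewhere. SOX9, with SOX5 and SOX6, drives the fibril and type IX genes in chondrocytes, and RUNX2 drives *Col10a1*.

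The genes lie on 7 chromosomes, with *Col9a2* and *Col27a1* both on chromosome 4 (GRCm38, GENCODE M21). *Col2a1* spans chr15:97975602-98004695 on the minus strand, and the others lie on the plus strand. *Col9a1* spans chr1:24177610-24252684, *Col9a2* chr4:121039385-121055322 and *Col9a3* chr2:180597790-180622189. *Col10a1* spans chr10:34389981-34397085, *Col11a1* chr3:114030540-114220718, *Col11a2* chr17:34039437-34066685 and *Col27a1* chr4:63214004-63334991. Promoters of 300 bases, from 250 bases before a RefSeq start site to 50 bases from it (GRCm38.p6), were at hand for 6 of the 8 members. They were searched on both strands for the SOX cores ACAAAG and ACAATG, the RUNX core TGTGGT and the TATA box TATAAA. The promoters of *Col10a1* (chr10:34389731-34390030, plus strand), *Col11a1* (chr3:114030290-114030589, plus strand) and *Col11a2* (chr17:34038888-34039187, plus strand) are shown because *Col10a1* appeared last of the 8 and the type XI pair parted in tenocyte-like cells; capitals mark the motif matches:
Col10a1: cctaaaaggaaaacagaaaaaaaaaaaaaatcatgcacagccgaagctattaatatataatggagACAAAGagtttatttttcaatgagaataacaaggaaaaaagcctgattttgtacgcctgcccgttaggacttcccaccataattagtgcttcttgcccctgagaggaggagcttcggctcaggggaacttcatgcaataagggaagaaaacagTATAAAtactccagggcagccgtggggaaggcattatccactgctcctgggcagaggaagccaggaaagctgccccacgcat
Col11a1: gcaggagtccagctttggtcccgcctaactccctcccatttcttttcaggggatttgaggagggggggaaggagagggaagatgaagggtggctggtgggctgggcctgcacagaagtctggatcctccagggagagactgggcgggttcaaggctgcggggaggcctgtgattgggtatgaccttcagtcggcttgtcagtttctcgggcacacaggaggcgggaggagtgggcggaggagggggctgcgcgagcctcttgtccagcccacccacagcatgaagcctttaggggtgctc
Col11a2: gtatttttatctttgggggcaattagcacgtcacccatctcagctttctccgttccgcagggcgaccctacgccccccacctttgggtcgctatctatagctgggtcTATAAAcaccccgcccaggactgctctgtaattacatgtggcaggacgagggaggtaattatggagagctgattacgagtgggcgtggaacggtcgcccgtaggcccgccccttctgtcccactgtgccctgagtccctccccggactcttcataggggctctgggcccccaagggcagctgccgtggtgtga
*Col10a1* held ACAAAG 185 bases before its start site, a motif found in 18.7% of all 32851 promoters of this length, and TATAAA 32 bases before it, found in 13.6%. *Col11a2* held TATAAA at 143 bases before its start site. The windows of *Col11a1*, *Col9a1*, *Col9a2* and *Col27a1* held none of the 4 motifs. ACAATG was found in 12.6% and TGTGGT in 16.8% of all promoters, and neither was found in a member's window. A match describes letters and not a bound factor.

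The 57767 cells kept held 53589094 to 107739968 UMIs (unique molecular identifiers, 1 for each captured transcript) per library. The libraries differed in more than injury. Immune cells made up 53.7% of the uninjured Gli1+ library and at most 0.221% of any other, and mesenchymal clusters made up 35.0% of it against 53.4% to 82.3% elsewhere. The labels state equal sexes, but cells with Y-linked and no *Xist* UMIs made up 59.5% of the uninjured Gli1- library and 70.9% and 70.5% of the 7 dpi Gli1+ and Gli1- libraries, while cells with *Xist* and no Y-linked UMIs made up 92.7% and 90.6% at 21 dpi. The uninjured Gli1+ library held cells of both kinds, 68.8% of the latter. Between 7 and 21 dpi, and between uninjured and 21 dpi in Gli1- cells, time and the sex of the cells therefore cannot be told apart. *Gli1* transcripts, scaled to 1000000 counts per library (CPM), stood at 6.62, 2.15 and 4.12 in uninjured, 7 dpi and 21 dpi Gli1+ cells. The Gli1- values were 7.52, 2.55 and 3.93 CPM, so the transcript itself did not part the sorts. From 15 to 33 barcodes were shared between a pair of libraries. Conditions were not replicated, so none was tested against another: the intervals below cover counting error only, and a gene was called where its CPM differed at least 2-fold among genes with 50 or more UMIs in the pair.

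*Col2a1*, the main fibril chain, was at 13.3 CPM (95% Poisson interval 12.5 to 14.3) in uninjured Gli1+ cells, 73.5 (71.8 to 75.3) at 7 dpi and, by 21 dpi, 680 (675 to 685). The Gli1- levels at these times were 0.952 (0.709 to 1.25), 117 (115 to 119) and 1083 (1077 to 1090) CPM. It was thus lowest before injury and highest at 21 dpi in both sorts. The 21 dpi level was 51.0-fold the uninjured one in Gli1+ cells and 1138-fold in Gli1- cells, where the uninjured library held only 51 *Col2a1* UMIs. These are log2 ratios of 5.67 and 10.15. In mesenchymal clusters alone they were 4.54 and 10.09, and 4.15 in mesenchymal Gli1+ cells with *Xist* and no Y-linked UMIs.

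The 3 type IX genes followed the same order. *Col9a1* was counted at 0.297, then 9.95, then 50.8 CPM in the Gli1+ sort. In the Gli1- sort it was at 0.0746 CPM, on 4 UMIs, then at 14.5 and 83.5. *Col9a3* went from 1.39 to 9.96 and 61.1 CPM and from 1.81 to 16.2 and 94.6. *Col9a2* differed in Gli1+ cells at 7 dpi: it stood at 5.26, 7.80 and 72.2 CPM, so that the level at 7 dpi was only 1.48-fold the uninjured one, and at 2.97, 13.6 and 107 CPM in Gli1- cells. In mesenchymal clusters alone the 7 dpi Gli1+ log2 ratio of *Col9a2* was -0.54.

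*Col10a1*, the hypertrophic member, was close to absent until 21 dpi. In Gli1+ cells its UMIs numbered 3 before injury, 28 at 7 dpi and 3972 at 21 dpi, or 0.0469, 0.308 and 40.4 CPM. The Gli1- libraries held 14, 31 and 4627, or 0.261, 0.288 and 47.2 CPM. The log2 ratio of 21 over 7 dpi was 7.04 (6.50 to 7.63) in Gli1+ cells and 7.36 (6.85 to 7.92) in Gli1- cells, where the interval is binomial, of the 2 counts given their sum.

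The type XI pair parted. *Col11a1* was already at 111 CPM in uninjured Gli1+ and 33.8 in uninjured Gli1- cells, reached 408 and 404 at 7 dpi and was at 491 and 488 at 21 dpi, only 1.20-fold and 1.21-fold above 7 dpi. *Col11a2* was at 32.3 CPM in uninjured Gli1+ cells, fell to 9.95 at 7 dpi, a 3.25-fold drop, and was at 40.4 at 21 dpi. In Gli1- cells it was at 6.55, 10.5 and 53.5 CPM. In mesenchymal clusters alone *Col11a2* at 21 dpi had a log2 ratio of -0.76 over uninjured Gli1+ cells and of 2.95 in Gli1- cells, so its direction in Gli1+ cells depended on which cells were counted.

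*Col27a1* was the member that was higher at 7 than at 21 dpi in both sorts. It was at 17.0, 122 and 82.7 CPM in Gli1+ cells and at 33.3, 132 and 95.8 CPM in Gli1- cells. The step from 7 to 21 dpi was 1.47-fold and 1.38-fold down, short of 2-fold.

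**Figure D1:**
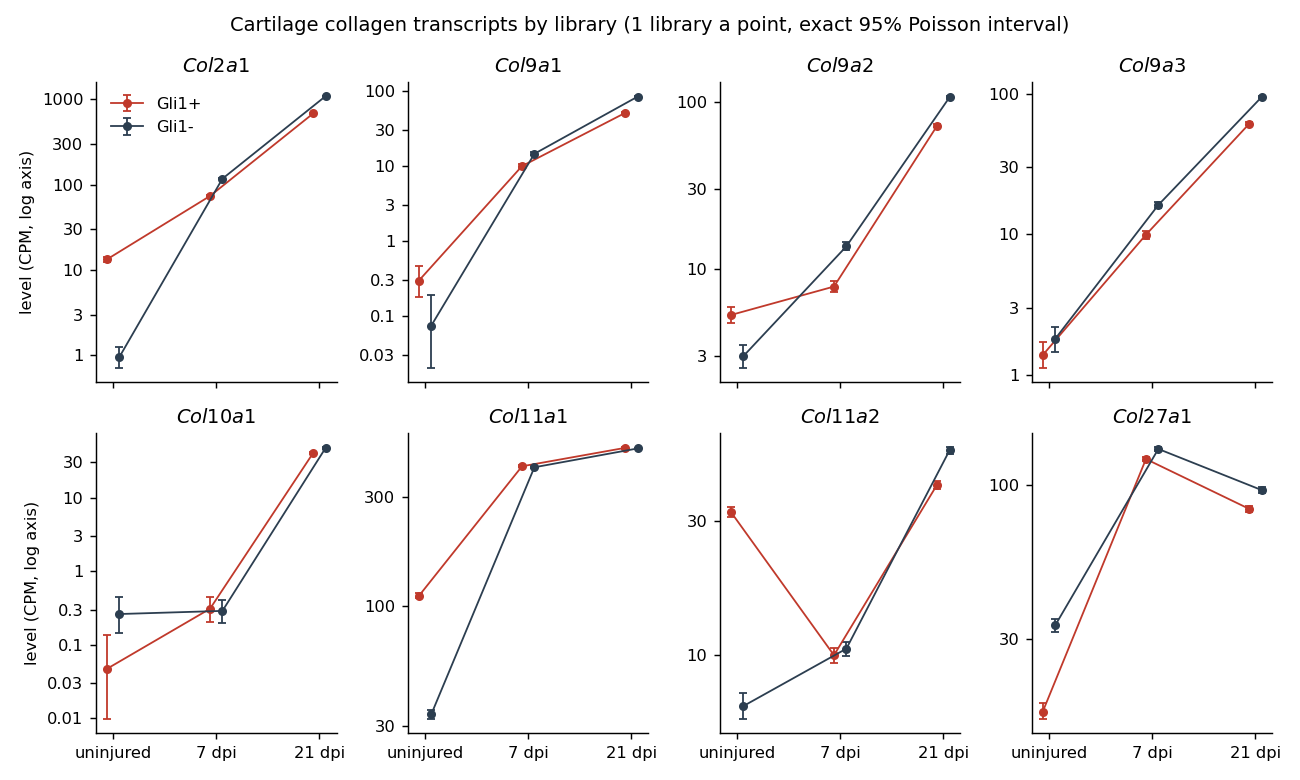
Level of each cartilage collagen in CPM (log axis) in uninjured, 7 dpi and 21 dpi libraries, Gli1+ in red and Gli1- in dark blue, 1 library a point with its exact 95% Poisson interval for counting error. *Col2a1* and the type IX genes climb at each step, *Col10a1* climbs at 21 dpi, *Col11a1* and *Col27a1* climb at 7 dpi, and *Col11a2* dips at 7 dpi in Gli1+ cells to 9.95 CPM.

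Over uninjured tendon, 5 of 7 members measured at 7 dpi were at least 2-fold higher in Gli1+ cells, where 13.5% of all tested genes were, and 1, *Col11a2*, was at least 2-fold lower, as were 26.1% of genes. *Col10a1* was short of the 50 UMIs there. At 21 dpi 7 of 8 members were higher, against 10.1% of genes, with *Col11a2* the exception. In Gli1- cells 6 of 7 were higher at 7 dpi, against 12.0%, and 8 of 8 at 21 dpi, against 10.8%. From 7 to 21 dpi 6 of 8 were higher in each sort, all but *Col11a1* and *Col27a1*, against 5.62% of genes in Gli1+ and 7.32% in Gli1- cells. The median log2 ratio of the members at 21 dpi over uninjured was 4.62 and 5.44, and that of all tested genes -0.30 and -0.19. The members were chosen with earlier results of these data known, so these counts and medians are a description and not a test. In cells that carried UMIs of 1 sex alone the counts of higher members were the same where the comparison could be made: 7 members in Gli1+ cells with *Xist* UMIs alone at 21 dpi, and 5 and 6 in Gli1+ and Gli1- cells with Y-linked UMIs alone at 7 dpi. In mesenchymal clusters alone the Gli1+ count at 7 dpi was 4, without *Col11a1*, whose log2 ratio there was 0.74. In mesenchymal cells with *Xist* UMIs alone at 21 dpi it was 6, with *Col11a1* just short of 2-fold.

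The sorts differed in uninjured tendon and little after injury. Of 6 members measured, *Col2a1*, *Col11a1* and *Col11a2* were 14.0-fold, 3.29-fold and 4.93-fold higher in uninjured Gli1+ than Gli1- cells, where 19.2% of genes were at least 2-fold higher. These are log2 ratios of 3.81, 1.72 and 2.30. In mesenchymal clusters alone, which leave out the immune cells, they were 4.82, 2.76 and 3.26, and *Col9a2*, at 0.83 over all cells, was there at 1.77, past 2-fold. Of uninjured Gli1+ cells, 15 with 5 or more *Col2a1* UMIs lay in a cluster with cartilage and bone markers. They held 646 of 852 *Col2a1*, 1903 of 7103 *Col11a1* and 683 of 2064 *Col11a2* UMIs. Tenocyte-like cells numbered 760 of 7057 Gli1+ and 205 of 10882 Gli1- cells. Within them *Col11a1* was lower, and *Col2a1* and *Col11a2* higher, in the Gli1+ sort. These uninjured libraries also differed in sex, as given above. No member was 2-fold apart between the sorts at 7 dpi, where 5.79% of genes were higher and 3.83% lower in Gli1+ cells, nor at 21 dpi, where 3.31% and 4.54% were. At 21 dpi *Col2a1* and the type IX genes were 1.48-fold to 1.64-fold higher in Gli1- cells and *Col11a1* was level, with a log2 ratio of 0.01 (-0.01 to 0.03).

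Genes known to work with the members were taken as whole lists, which were also chosen with earlier results of these data known. Of all tested genes in Gli1+ cells, 13.5% and 10.1% were at least 2-fold higher over uninjured at 7 and 21 dpi. Lower were 26.1% and 26.6%. In Gli1- cells 12.0% and 10.8% of genes were higher, and 20.5% and 17.6% lower. From 7 to 21 dpi 5.62% were higher and 8.81% lower in Gli1+ cells, and 7.32% and 5.42% in Gli1- cells. Of 14 cartilage matrix genes, 8 were at least 2-fold higher and 3 lower at 7 dpi over uninjured Gli1+ cells, and 9 and 2 at 21 dpi. In Gli1- cells 9 were higher and 3 lower at 7 dpi, and 11 and 0 at 21 dpi. *Acan*, the core protein of the large cartilage proteoglycan, was among the higher genes each time, and *Chad*, a small leucine-rich protein of cartilage and tendon, was lower at 7 dpi in both sorts. At 21 dpi *Chad* was lower in Gli1+ but higher in Gli1- cells. Of 8 hypertrophy and mineral genes, 7 were higher at 21 than at 7 dpi in both sorts, among them *Ihh*, the hedgehog ligand of prehypertrophic cartilage, and *Mmp13*, the collagenase that clears hypertrophic matrix. Over uninjured tendon 3 were higher and 3 lower at 7 dpi, and 7 and 1 at 21 dpi, in Gli1+ cells, with *Bglap* lower both times, and 5 and 2, and 6 and 0, in Gli1- cells. The 10 other fibrillar and fibril-associated collagens, with *Col1a1* and *Col3a1*, were all higher over uninjured at both times in both sorts, and from 7 to 21 dpi none rose and *Col24a1* fell in each sort. Of 15 genes that fold, modify or crosslink collagen, 10 and 11 were higher at 7 dpi in Gli1+ and Gli1- cells and 11 and 9 at 21 dpi, and none was lower. Of 7 transcription factors, *Sox9* was at least 2-fold higher over uninjured in each of the 4 comparisons, *Sox5* in none, and *Runx2* in Gli1- cells alone, which was not tested as a difference between sorts. *Sox6* was higher at 7 dpi in Gli1+ cells, *Sp7* at 21 dpi in both sorts and *Runx3* at 21 dpi in Gli1- cells. Lower were *Runx3* and *Sp7* at 7 dpi and *Runx3* at 21 dpi in Gli1+ cells, and *Mef2c* at 7 dpi in Gli1- cells. All of these counts and calls were made over all cells. Immune cells made up 53.7% of the uninjured Gli1+ library and 0% of the 7 and 21 dpi Gli1+ libraries. Mesenchymal clusters made up 35.0%, 75.9% and 82.3% of them in that order. The part of this make-up in the Gli1+ calls was not tested.

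The cells that held the transcripts were followed through cells with 5 or more *Col2a1* UMIs, called *Col2a1*-high below. They numbered 22 of 7057 uninjured Gli1+ cells (0.312%, exact binomial interval 0.195 to 0.472), 31 of 9250 at 7 dpi (0.335%, 0.228 to 0.475) and 255 of 9780 at 21 dpi (2.61%, 2.30 to 2.94). In Gli1- cells they numbered 1 of 10882, 48 of 9931 (0.483%, 0.357 to 0.640) and 305 of 10867 (2.81%, 2.50 to 3.13). Their share was thus higher at 21 dpi in both sorts, and in Gli1+ cells the intervals of uninjured and 7 dpi overlapped. With a limit of 2 UMIs those intervals lay apart, at 0.723% (0.539 to 0.949) uninjured and 1.38% (1.16 to 1.64) at 7 dpi. Over mesenchymal cells alone, which leave out the immune cells of the uninjured library, the order of the shares was the opposite: 22 of 2469 uninjured against 31 of 7023 cells at 7 dpi, and 51 of 2469 against at most 128 of 7023 with a limit of 2 UMIs. No interval was set on these mesenchymal shares, so whether they lie apart was not tested. A *Col2a1*-high Gli1+ cell held on average 31.4 *Col2a1* UMIs when uninjured, 180 at 7 dpi and 257 at 21 dpi. These means joined unlike cells, those of the cluster that raised both the cartilage and the bone markers (the cartilage-and-bone cluster) and those outside it. At 7 dpi the 16 cells in the cluster held 5117 of the 5580 UMIs, with a median of 318 a cell, and the 15 outside had a median of 8. Inside the cluster the median was 34 in the 15 uninjured cells and 168 in the 187 cells at 21 dpi, and outside it 6 in 7 cells and 10 in 68. Just inside the limit, 31 and 51 cells at 21 dpi held 5 to 7 UMIs, and just outside it 64 and 139 held 3 or 4, while 143 and 187 held 50 or more (Gli1+ and Gli1-).

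At 21 dpi the *Col2a1*-high cells held nearly all of 5 members. They held 98.0% and 97.3% of the *Col2a1* UMIs of Gli1+ and Gli1- cells, which the limit itself favours. They also held 94.0% and 95.4% of *Col9a1*, 6667 of 7099 and 9950 of 10477 UMIs of *Col9a2*, 96.6% and 95.8% of *Col9a3* and 99.0% and 97.3% of *Col10a1*. *Col11a2* was held at 80.4% and 86.4%, and *Col11a1* and *Col27a1* at only 26.5% and 40.7%, and at 2433 of 8123 and 3790 of 9391 UMIs.

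At 7 dpi the share held was lower for every member. The *Col2a1*-high cells were also fewer then, 31 and 48 against 255 and 305 at 21 dpi. A share held thus depends on their number and does not give the level in them, which is set out below. It was 83.4% and 89.1% for *Col2a1*, 63.6% and 70.7% for *Col9a1*, 50.3% and 58.6% for *Col9a2*, 72.0% and 76.0% for *Col9a3*, 34.1% and 57.5% for *Col11a2*, 5.22% and 9.88% for *Col11a1* and 2.54% and 4.53% for *Col27a1*, and 0 of 28 and 1 of 31 *Col10a1* UMIs. In uninjured Gli1+ cells the *Col2a1*-high cells held 81.1% of *Col2a1*, 30.2% of *Col11a1* and 35.6% of *Col11a2*, with 11 of 19 *Col9a1* UMIs, 3 of 336 *Col9a2* UMIs and 0 of 89 *Col9a3* UMIs. Before injury they thus held few *Col9a2* and no *Col9a3* UMIs, and after injury at least 50.3% of each type IX gene.

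**Figure D2:**
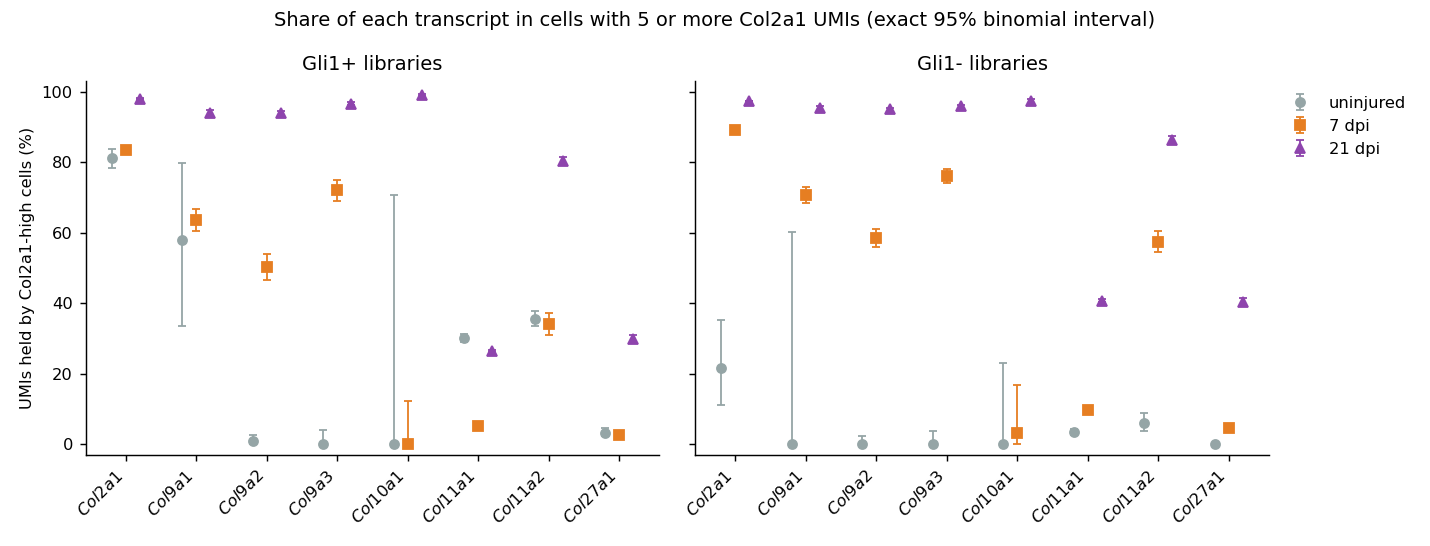
Share of each member's UMIs held by *Col2a1*-high cells, in percent with the exact 95% binomial interval, for the Gli1+ libraries on the left and the Gli1- libraries on the right, with uninjured in grey, 7 dpi in orange and 21 dpi in purple. At 21 dpi 6 members lie above 80%, and *Col11a1* and *Col27a1* lie between 26.5% and 40.7%.

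Some *Col2a1* UMIs were counted outside these cells too. Blood endothelial-like cells, which build no cartilage fibrils, held a *Col2a1* UMI in 0%, 7.27% and 8.33% of cells in the uninjured, 7 dpi and 21 dpi Gli1+ libraries and in 0.0852%, 5.65% and 17.4% in the Gli1- libraries. All cells outside the *Col2a1*-high set held one in 11.3% and 21.4% at 21 dpi. With each cell thinned to 2000 UMIs the shares at 21 dpi were 2.97% and 6.50% outside the set and 2.39% and 8.47% in blood endothelial-like cells. The *Col2a1* level at 21 dpi was 14.2 and 31.3 CPM outside the set, against 16.9 and 42.5 CPM in blood endothelial-like cells. The limit itself keeps cells with 5 or more *Col2a1* UMIs out of the first pair of levels and not out of the second, and the part of free RNA in either was not tested.

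Type IX genes were found together in *Col2a1*-high cells after injury. All 3 had a UMI in 21 of 31 Gli1+ cells at 7 dpi (67.7%, 48.6 to 83.3), 172 of 255 at 21 dpi (67.5%, 61.3 to 73.2), 36 of 48 Gli1- cells at 7 dpi (75.0%, 60.4 to 86.4) and 201 of 305 at 21 dpi (65.9%, 60.3 to 71.2). With a limit of 2 *Col2a1* UMIs the shares at 21 dpi were 39.8% in Gli1+ and 26.3% in Gli1- cells. In uninjured Gli1+ cells 0 of 22 had all 3 and 16 of 22 had none, though these cells were the deepest, with a median of 23719 UMIs against 14294 to 19521 after injury. With each cell thinned to 2000 UMIs, all 3 were seen in 46.7% and 42.0% of Gli1+ and 47.9% and 49.7% of Gli1- cells at 7 and 21 dpi, and in 0 of 22 uninjured cells. Single type IX genes were seen, unthinned, in 74.2% to 93.5% of the injured cells and in at most 5.45% of blood endothelial-like cells of the same libraries, whose median depth was 2258 to 5980.5 UMIs.

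Type XI and XXVII were found there as well. *Col11a1* was seen in 95.4% to 100% of *Col2a1*-high cells in the 5 libraries with more than 1 such cell, and *Col11a2* in 100% before injury and 79.2% to 93.5% after. In all other cells of these libraries *Col11a1* was seen in 11.5% to 65.6% and *Col11a2* in 3.13% to 6.72%, and in blood endothelial-like cells in 1.15% to 40.0% and 0% to 2.96%. Thinned to 2000 UMIs *Col11a1* was seen in 87.7% to 95.8% of *Col2a1*-high and 6.97% to 37.3% of other cells. *Col27a1* was seen in 9 of 22 uninjured cells (40.9%, 20.7 to 63.6) and in 82.0% to 93.8% after injury, against 26.5% to 48.2% of other cells and 2.50% to 9.09% of blood endothelial-like cells after injury. *Col10a1* was seen in 0 of 22 uninjured cells, with an exact interval up to 15.4%, in 0 of 31 and 1 of 48 at 7 dpi, and in 11.4% and 11.5% at 21 dpi. All 8 members together were seen in 22 and 28 cells, 8.63% and 9.18%, at 21 dpi, and in 1 Gli1- cell at 7 dpi.

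**Figure D3:**
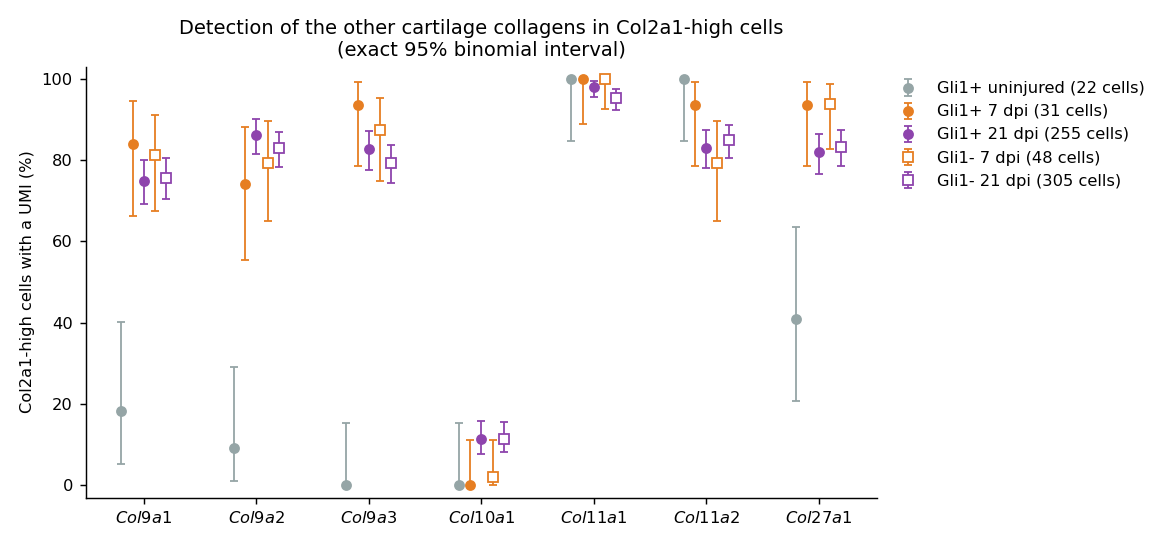
Percent of *Col2a1*-high cells with a UMI of each other cartilage collagen, with exact 95% binomial intervals, in the 5 libraries with more than 1 such cell. Uninjured Gli1+ cells (grey) have *Col11a1* and *Col11a2* in 100% of 22 cells but the type IX genes in 0% to 18.2%, and *Col10a1* is found in about 11% of cells at 21 dpi (purple).

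The 22 uninjured Gli1+ cells were not of one kind. Of them 15 lay in the cartilage-and-bone cluster, and 7 in a tenocyte-like cluster. The 15 held *Col2a1* at 1337 CPM, *Col11a1* at 3938 and *Col11a2* at 1413, with *Col9a1* UMIs in 4 cells, *Sox9* in 1 cell, and *Col9a2*, *Col9a3*, *Acan* and *Snorc*, a chondrocyte membrane proteoglycan, at 0. All 15 had UMIs of *Bglap*, the osteoblast product osteocalcin, at 48663 CPM, *Ibsp*, bone sialoprotein, at 5986 CPM, *Runx2* at 882 CPM and *Col1a1* at 77372 CPM. *Spp1*, the bone matrix protein osteopontin, was at 0 in them, and *Mmp13* had UMIs in 1 cell, while the 17 uninjured Gli1+ cells of the cluster that were not *Col2a1*-high held *Spp1* at 9634 CPM. The 7 others held *Tnmd*, the tenocyte membrane protein tenomodulin, at 1735 CPM and *Fmod* at 5668 CPM, with *Col11a1* at 2144 and *Col11a2* at 454 CPM, and *Acan*, *Snorc*, *Col9a1*, *Col9a3* and *Col27a1* at 0. *Acan* and *Snorc* were thus at 0 in both groups, and *Sox9* had 1 UMI in each. The 1 uninjured Gli1- cell held *Bglap* at 15842 CPM, *Col11a1* and *Col11a2* UMIs and no type IX UMI.

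The make-up of *Col2a1*-high cells was counted as UMIs per 100 *Col2a1* UMIs. *Col11a1* stood at 310 in uninjured Gli1+ cells, 34.7 at 7 dpi and 19.5 at 21 dpi, and at 38.2 and 18.9 at 7 and 21 dpi in Gli1- cells. *Col11a2* stood at 106, 5.54 and 4.87, and at 5.78 and 4.39. The type IX genes were at 0 to 1.59 in uninjured Gli1+ cells. *Col9a1* was at 10.3 and 7.17 at 7 and 21 dpi in Gli1+ and 9.81 and 7.56 in Gli1- cells, *Col9a3* at 11.7 and 8.86, and 11.8 and 8.60, and *Col9a2* at 6.40 and 10.2, and 7.64 and 9.64. Per *Col2a1* UMI *Col9a2* thus stood higher at 21 than at 7 dpi in both sorts, and the other type IX genes lower. By CPM in the same cells *Col9a1* went from 1315 to 1154 and *Col9a3* from 1489 to 1426 in Gli1+, but *Col9a1* from 1122 to 1664 and *Col9a3* from 1345 to 1893 in Gli1- cells, where *Col2a1* was higher too.

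Between 7 and 21 dpi, *Col2a1*-high cells changed in 2 members by 2-fold or more in each sort, *Col9a2* and *Col10a1*, where 7.69% of genes were higher in Gli1+ and 5.60% in Gli1- cells. *Col9a2* went from 815 to 1638 CPM, a log2 ratio of 1.01 (0.85 to 1.16), and from 875 to 2121 CPM, 1.28 (1.18 to 1.38). *Col10a1* went from 0 UMIs to 966 CPM in Gli1+ cells. Against a floor of 3 counts in the library's *Col2a1*-high cells this was 141-fold, a log2 ratio of 7.14 with an exact lower limit of 6.84. In Gli1- cells it went from 1 UMI to 960 CPM, a log2 ratio of 9.88 (7.41 to 15.19). *Col2a1* itself went from 12743 to 16098 and from 11443 to 22011 CPM. *Col11a1* went from 4424 to 3137 and from 4372 to 4154 CPM. In the same cells 7 of 8 hypertrophy and mineral genes were higher in Gli1+ and 6 of 8 in Gli1- cells, while of the 10 other collagens none moved 2-fold in either sort. *Ibsp* went from 2.28 CPM, on 1 UMI, to 14003 CPM in Gli1+ cells, but from 1553 to 4935 CPM in Gli1- cells. Of the *Col2a1*-high cells 16 of 31 and 187 of 255 Gli1+ cells, and 29 of 48 and 218 of 305 Gli1- cells, lay in the cartilage-and-bone cluster at 7 and 21 dpi. In those cells alone *Col9a2* went from 1373 to 2160 CPM in the Gli1+ sort, less than 2-fold, and from 1326 to 2799 CPM in the Gli1- sort, still over 2-fold. *Col2a1* there was level in the Gli1+ sort, at 21483 and 21218 CPM, and went from 17498 to 28744 CPM in the Gli1- sort. *Col10a1* there went from 0 UMIs to 1294 CPM and from 1 UMI to 1290 CPM.

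*Col10a1* UMIs sat in few cells. At 21 dpi 17 Gli1+ and 23 Gli1- cells had 5 or more *Col10a1* UMIs and held 98.7% and 96.9% of all *Col10a1* UMIs of their libraries, with up to 803 and 689 in 1 cell. All 40 lay in the cartilage-and-bone cluster and were *Col2a1*-high. In the other libraries 0 to 1 cells reached 5 UMIs, and neither of the 2 at 7 dpi was *Col2a1*-high.

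Within *Col2a1*-high cells at 21 dpi, these *Col10a1*-high cells were set beside the 226 Gli1+ and 270 Gli1- cells without a *Col10a1* UMI. The groups were cut by *Col10a1* itself, so the values describe the cells of these 2 libraries. They also differed in cluster: all *Col10a1*-high cells lay in the cartilage-and-bone cluster, but only 187 of 255 and 218 of 305 *Col2a1*-high cells did. Gli1+ *Col2a1*-high cells outside the cluster held *Snorc* at 58.0 and *Acan* at 710 CPM, against 3287 and 2601 CPM inside it. The other 7 members differed by less than 2-fold, with log2 ratios from 0.01 to 0.69, and the interval reached below 0 for *Col11a2* in Gli1+ cells alone (-0.19 to 0.20). *Ihh* was at 995 against 11.5 CPM in Gli1+ and 523 against 10.2 CPM in Gli1- cells, log2 ratios of 6.43 (5.96 to 6.95) and 5.68 (5.19 to 6.20). *Pth1r*, the receptor of parathyroid hormone-related protein, was higher by 1.70 and 2.10, *Alpl*, the mineralizing phosphatase, by 1.45 and 2.40, *Panx3*, a pannexin channel of prehypertrophic cartilage, by 1.55 and 1.67, *Ibsp* by 0.56 and 2.08 and *Spp1* by 1.49 and 0.25 on the log2 scale. *Bglap* had log2 ratios of -0.84 (-2.75 to 0.58) and -1.17 (-1.65 to -0.72). Of cartilage matrix genes *Snorc* was higher by 1.73 and 1.75 and *Acan* by 1.18 and 1.07. *Ucma*, a protein of the resting and upper cartilage zones, had log2 ratios of -2.52 and -4.01, and *Col1a1* of -2.70 and -1.37. *Mmp13* did not go one way, with 0.47 and -0.77.

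**Figure D4:**
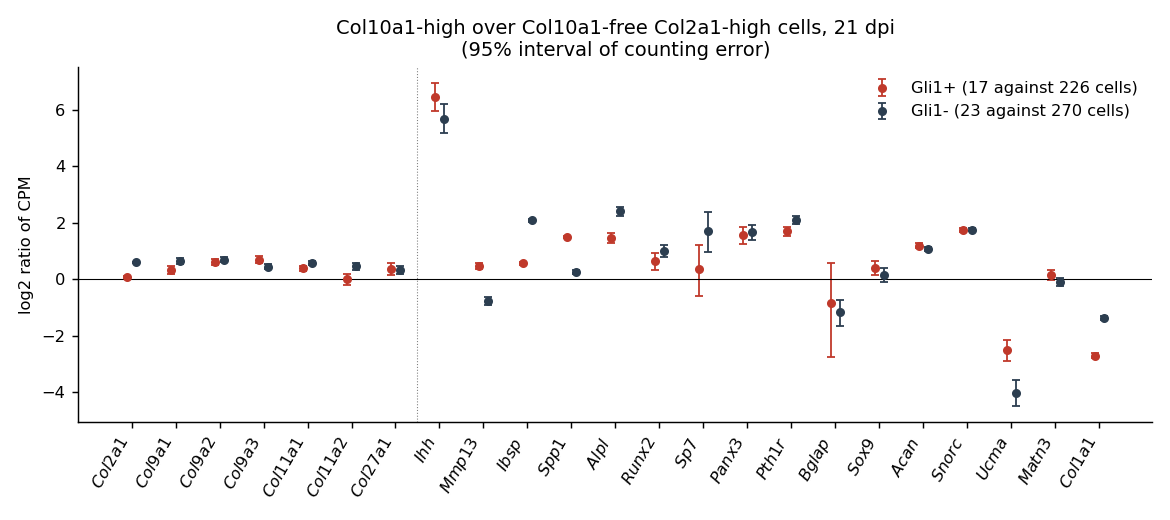
Log2 ratio of CPM of *Col10a1*-high cells over *Col2a1*-high cells without a *Col10a1* UMI at 21 dpi, for 17 against 226 Gli1+ cells (red) and 23 against 270 Gli1- cells (dark blue), with 95% intervals of counting error. The members left of the dotted line lie between 0.01 and 0.69, *Ihh* is highest at 6.43 and 5.68, and *Ucma* is lowest in Gli1- cells at -4.01.

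Across cell classes the members fell into a confined and a broad set. Clusters were named from markers that held no member, and the members and markers were left out of the genes used to cluster. In the cartilage-and-bone cluster at 21 dpi, with 284 Gli1+ and 333 Gli1- cells, *Col2a1* was at 16036 and 21208 CPM, *Col9a1* at 1159 and 1625, *Col9a2* at 1655 and 2077, *Col9a3* at 1414 and 1840 and *Col10a1* at 978 and 951 CPM. The highest level of *Col2a1* in tenocyte-like cells of a library was 48.2 CPM, and that of *Col9a1* 5.33 and of *Col9a3* 5.62 CPM. Elsewhere *Col2a1* reached 131 CPM in other mesenchymal clusters and 333 CPM in 58 skeletal muscle-like cells, on 58 UMIs, both in Gli1- cells at 21 dpi. *Col9a3* was at 16.6 to 29.6 CPM in Schwann-like cells. In skeletal muscle-like cells *Col9a1* and *Col9a3* reached 23.0 and 34.5 CPM. *Col11a2* stood at 820 and 951 CPM in the cluster, *Col11a1* at 3066 and 3982 and *Col27a1* at 618 and 795 CPM.

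*Col11a1* was found in tenocyte-like cells at every time. Its Gli1+ level there was 634 CPM before injury, 892 at 7 dpi and 846 at 21 dpi, and its Gli1- level 894, 977 and 772 CPM, so over the class it moved less than 2-fold with injury. The class joined a pair of clusters, with 699 and 61 Gli1+ cells uninjured and 415 and 2615 at 21 dpi. *Col11a1* was not set out within each of them. The other mesenchymal clusters held 60.2, 453 and 333 CPM of it in the Gli1+ sort, and 7.47, 380 and 284 in the Gli1- sort. Stem-like fibroblasts held 2.07 CPM before injury and 129 at 21 dpi in the Gli1+ sort, and 2.26, 237 and 134 in the Gli1- sort. These classes were made of different clusters at each time. Of the Gli1- stem-like fibroblasts, 4037 lay in one cluster and 81 in the other before injury, and 203 and 2674 at 21 dpi. Within the second *Col11a1* was at 10.6 CPM before injury, 258 at 7 dpi and 138 at 21 dpi. The other mesenchymal cluster with the most uninjured Gli1+ cells held 644 of them, with *Col11a1* at 43.3 CPM, and 380 at 21 dpi, at 48.6 CPM. At 7 dpi 4398 cells lay in a cluster that had no uninjured cell, at 502 CPM. Blood endothelial-like cells held 2.85, 74.8 and 19.3 CPM of *Col11a1* in the Gli1+ sort, and 2.64, 70.7 and 32.8 in the Gli1- sort. The part of free RNA in the values above was not tested.

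*Col11a2* went the other way in tenocyte-like cells. It was at 163 CPM uninjured, 81.8 at 7 dpi and 16.9 at 21 dpi in Gli1+ cells and at 119, 52.5 and 13.7 CPM in Gli1- cells, so the order was the same in both sorts. The log2 ratio of 21 dpi over uninjured was -3.27 (-3.43 to -3.12) and -3.11 (-3.39 to -2.82). It was the only member that was at least 2-fold lower there, as were 19.3% of genes in Gli1+ and 13.8% in Gli1- tenocyte-like cells. The class joined a pair of clusters, of which one held 699 of 760 uninjured Gli1+ cells and 415 of 3030 at 21 dpi, and the other 61 and 2615. In the first cluster alone the log2 ratios were -1.20 and -0.71, smaller drops than over the class. The second cluster was not set out alone, so how much of the difference lay between the clusters was not tested. Over the whole class, 4 cartilage matrix genes were higher and 3 lower in Gli1+ cells, and 5 and 3 in Gli1- cells. *Chad* was among the lower ones in both. Of the 10 other collagens 7 and 8 were higher, where 8.13% and 9.50% of all genes were.

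At 21 dpi over uninjured, 3 members, *Col9a1*, *Col9a3* and *Col27a1*, were at least 2-fold higher in Gli1+ tenocyte-like cells, where 8.13% of genes were. The Gli1+ call of *Col9a1* rests on 1 uninjured UMI. With *Col2a1* 4 were higher in Gli1- cells, where 9.50% were. *Col9a1* and *Col9a3* had 0 UMIs in the uninjured Gli1- cells of the class. Their calls rest on the floor of 3 counts, with lower log2 limits of 0.81 and 0.90, below 2-fold. *Col2a1* there went from 16.9 to 48.2 CPM beside 0.283 and 42.5 CPM in blood endothelial-like cells of the same libraries. *Col9a1* at 5.33 and 5.28 CPM and *Col9a3* at 5.30 and 5.62 CPM stood beside 2.42 and 3.59, and 2.42 and 3.80 CPM in blood endothelial-like cells of the same libraries, so the part of free RNA in these was not tested. *Col27a1*, at 54.6 and 57.1 CPM, stood beside 3.63 and 7.61 CPM.

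*Col27a1* was counted in many classes. In the cell classes with 50 or more cells it was at 51.4 to 150 CPM in other mesenchymal clusters, 26.7 to 69.2 in stem-like fibroblasts, 12.9 to 97.9 in tenocyte-like, 18.0 to 67.4 in mural-like and 2.28 to 21.1 CPM in blood endothelial-like cells. Its highest level outside the cartilage-and-bone cluster was in Schwann-like cells, which numbered 50 or more in Gli1- libraries alone, at 156 CPM uninjured, 176 at 7 dpi and 313 at 21 dpi.

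**Figure D5:**
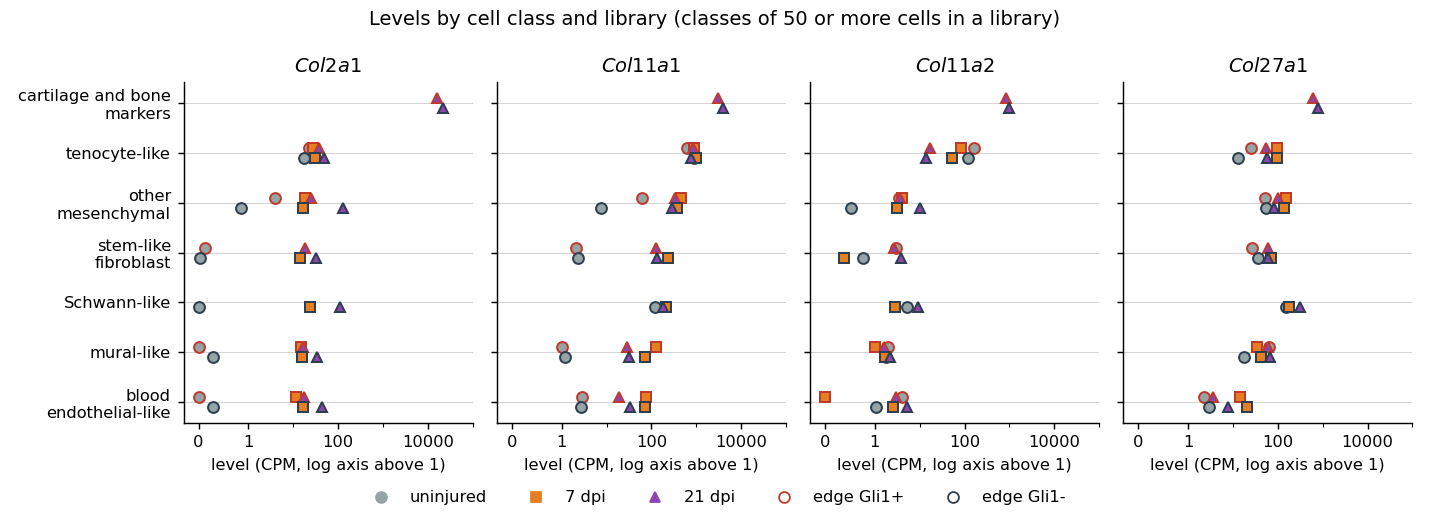
Levels in CPM (log axis above 1) of *Col2a1*, *Col11a1*, *Col11a2* and *Col27a1* by cell class, 1 symbol for each library with 50 or more cells of the class, circles uninjured, squares 7 dpi, triangles 21 dpi, red edge Gli1+ and dark edge Gli1-. *Col2a1* stands at 16036 and 21208 CPM in the cartilage-and-bone cluster, *Col11a1* stays between 634 and 977 CPM in tenocyte-like cells, and *Col11a2* goes there from 163 and 119 to 16.9 and 13.7 CPM.

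*Col9a2* was held by other cells in uninjured tendon, and not by the same ones in both sorts. Of its 336 UMIs in uninjured Gli1+ cells, 270 lay in 215 cells of a mesenchymal cluster led by *Apod*, *Negr1* and *Gpc3*, at 196 CPM, where *Col9a1* was at 0 and *Col9a3* at 2.90 CPM. The cluster held 62 cells at 21 dpi in Gli1+, with *Col9a2* at 251 CPM, *Col9a1* at 5.98 and *Col9a3* at 0, and 66 cells in uninjured Gli1- tendon, where *Col9a2* was at 16.4 CPM on 4 UMIs. Of the 159 *Col9a2* UMIs of uninjured Gli1- cells, 127 lay in 4118 stem-like fibroblasts, at 4.86 CPM.

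The genes most like each member over the 46 pairs of class and library with 50 or more cells are given with Pearson's r of log2(CPM + 1), as a description, since the points share libraries and free RNA. For *Col2a1* they were *Col9a1* (0.92), *Hapln1* and *Snorc* (0.90), *Acan* (0.89) and *Ucma* (0.87), and these stood at 0.73 to 0.85 over the 44 points without the cartilage-and-bone cluster. *Col9a1* was most like *Snorc* (0.94, and 0.81 without the cluster), *Col9a2* most like *Cnmd* (0.90 and 0.64) and *Col9a3* most like *Col9a1* (0.91 and 0.69). *Col10a1* was most like *Ihh* (0.95) and *Panx3* (0.94), which went to 0.41 and 0.43. Without the cluster another gene led for every member but *Col11a1*. *Col11a1* kept its likeness without the cluster: *Fbn2* stood at 0.93 and 0.94, *Ecrg4* at 0.93 and 0.92, *Edil3* at 0.92 and 0.92, and *Col12a1* at 0.91 and 0.91. *Col11a2* was most like *Ucma* (0.92, and 0.85 without the cluster) and *Chad* (0.90 and 0.88). *Col27a1* was most like *Slc35b2* (0.86 and 0.83) and *Gpx8* (0.84 and 0.86). *Col11a2* and *Col27a1* thus largely kept their likeness to these genes as well.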

How the data were processed

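Single-cell RNA of sorted Achilles tendon cells was read with the Chromium 3' v3 kit. The authors deposited counts of UMIs per gene and barcode for each of 6 libraries, not normalized. The matrix headers name Cell Ranger 9.0.0, whereas the submitters' processing notes name Cell Ranger 3.1.0, STAR and mm10. The annotation release is not given in the sources used here, and 31961 of 33696 gene IDs were in GENCODE M21.

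From these counts, cells with at least 200 genes, 1000 UMIs, a log10 genes to log10 UMIs ratio of 0.7, and at most 5% mitochondrial and 5% hemoglobin UMIs were kept, following the study's filters. Scrublet, in scanpy 1.11.5, replaced the study's doublet caller, and 0.8% of cells per 1000 cells were removed as likely doublets. UMIs were summed per library, class or cell set and scaled to 1000000. Cells were clustered with 2000 variable genes without members and markers, 30 components and Leiden at 0.5, giving 26 clusters. Kept cells had medians of 4297 to 9770 UMIs, which sets what a single cell can show. Poisson, binomial and ratio intervals are exact at 95% and cover counting error only. Replicates were not at hand, so no test between conditions was run. Calls are at least 2-fold, with at least 50 UMIs in the pair, and 0 takes a floor of 3 counts. The ratio script was tested on simulated data. TMM scaling used edgeR 4.0.16. The members are all described, partner genes are whole lists, and the 5 most alike genes of each member came from genes with at least 200 UMIs. The members and lists were chosen with earlier results of these data known.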

Additional observations from a re-analysis of the deposited data

Results flagged for a closer look

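*Col11a2* at 7 dpi over uninjured tendon went down in Gli1+ and up in Gli1- cells, with log2 ratios of -1.70 and 0.68, a difference of -2.38. With 1 library each, the difference between the sorts was not tested. In mesenchymal clusters alone the values were -2.79 and 0.36. Outside *Col2a1*-high cells *Col11a2* was lower at 7 dpi than uninjured in both sorts. It was at 6.58 against 21.0 CPM there in Gli1+ and at 4.51 against 6.16 CPM in Gli1- cells. The 48 *Col2a1*-high Gli1- cells at 7 dpi held 651 of 1132 *Col11a2* UMIs, and the 1 uninjured one held 21 of 351. Tenocyte-like cells, in which *Col11a2* was highest before injury outside the cartilage-and-bone cluster, numbered 760 of 7057 and 698 of 9250 cells in the uninjured and 7 dpi Gli1+ libraries and 205 of 10882 and 370 of 9931 in the Gli1- libraries. Within them *Col11a2* was lower at 7 dpi in both sorts, at 81.8 against 163 CPM and at 52.5 against 119 CPM. The class joined a pair of clusters, which held 699 and 61 Gli1+ cells uninjured and 688 and 10 at 7 dpi, and 198 and 7 Gli1- cells uninjured and 223 and 147 at 7 dpi. In the first alone *Col11a2* was at 178 and 83.3 CPM uninjured and at 7 dpi in Gli1+ cells, and at 124 and 77.8 CPM in Gli1- cells. The Gli1- drop was thus smaller within that cluster than over the class.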

How the results depend on the processing

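The counts of members at least 2-fold higher over uninjured tendon stayed within 1.5 times under the alternatives run: 4 to 6 and 6 to 7 in Gli1+ cells, 5 to 7 and 7 to 8 in Gli1- cells at 7 and 21 dpi. TMM scaling moved ratios over uninjured by 0.22 to 0.39 on the log2 scale. Of 360 single ratios under other filters, scalings and cell sets, 163 left the counting interval and 3 changed sign, all in mesenchymal clusters alone: *Col9a2* at 7 dpi over uninjured Gli1+ cells (-0.54), *Col11a2* at 21 dpi over uninjured Gli1+ cells (-0.76) and *Col27a1* in Gli1+ over Gli1- cells at 7 dpi (0.09). The rise in the share of *Col2a1*-high cells from uninjured to 21 dpi, 2.30 percentage points in Gli1+ and 2.80 in Gli1- cells, was 3.75 and 7.14 with a limit of 2 UMIs, 2.75 and 4.06 with 3, 1.95 and 2.24 with 10, 1.63 and 2.17 in cells thinned to 2000 UMIs, and 3.21 in Gli1- cells with no doublets removed. The share of these cells with all 3 type IX genes at 21 dpi was 39.8% and 26.3%, 54.2% and 46.2%, and 78.1% and 81.1% at those limits. The log2 ratio of *Col11a2* in tenocyte-like cells was -3.85 and -3.51 at Leiden 0.3, -3.73 and -3.45 with 20 components, and -1.20 and -0.71 in the cluster with most uninjured cells alone, an alternative chosen after seeing the data, as were the cells with UMIs of 1 sex alone and the cartilage-and-bone cluster in place of the *Col2a1*-high cells. At Leiden 0.3 and with 20 components the tenocyte-like class did not hold the same cells as in the main run. Its largest cluster held 5320 and 4516 Gli1+ cells at 21 dpi there, against 2615 in the main run. Those ratios are therefore not of a fixed set of cells. The cause of the shifts in this section was not tested. A fit of sort paired over the 3 times was not run.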
